A study of Oryza sativa with 13 samples.

Results

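In developing rice seed, 1650 stretches of the genome carried a DNA methylation peak in the embryo at every stage sampled, while the endosperm had the peak early and was without it by 9 days after pollination (DAP). They were found by merging touching or overlapping peaks of 7 peak lists into 70419 regions, in which 1 bp of overlap put a library in a region. Of these regions, 40415 held a peak in all 3 embryo libraries and are called constant embryo regions here. The 1650 lost regions, 4.08% of them, are those whose endosperm peak was present at 2 DAP and then absent from some stage onward. The endosperm peak was lost after 2 DAP in 491 of them, after 3 DAP in 270 and after 6 DAP in 889. The regions were thus chosen by the presence or absence of peaks in these same libraries, and their endosperm history is described and was not tested.

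The assay was MeDIP-seq, in which an antibody against 5-methylcytosine pulls down methylated DNA fragments for sequencing. The seed was of the japonica cultivar Zhonghua11 (ZH-11), grown in a phytotron, and the tissues were dissected by hand under a microscope. Embryo was taken at 3, 6 and 9 DAP. Endosperm was taken at those stages and also at 2 DAP. Each tissue and stage was 1 library, so no value below has a replicate error, and a change between stages cannot be told apart from a difference between single libraries. The other 6 samples of the series, of the indica cultivar 93-11, were not analysed here. After filtering, the libraries held 6833917 to 7465986 tags (aligned reads) in endosperm, rising at each stage, and 8062289 to 8423857 in embryo.

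The endosperm is the nutritive tissue of the cereal seed. It arises from the fertilised central cell, first divides as nuclei in a shared cytoplasm, then forms cells and fills with starch and storage protein. In plants, cytosine methylation is copied at CG sites by MET1, at CHG sites by chromomethylases, and at CHH sites by chromomethylases and the RNA-directed pathway through DRM2. DNA glycosylases of the DEMETER family cut methylated cytosine out, and the rice enzyme ROS1a is known to act before fertilisation. Endosperm of cereals and of Arabidopsis is known to carry less methylation than embryo at many sites. A peak list does not resolve these sequence contexts.

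One-way loss was 1 of several ways in which endosperm peaks came and went over the constant embryo regions. The lost regions were 4.08% of the constant embryo regions (95% exact Clopper-Pearson interval 3.89 to 4.28, which treats regions as independent and covers counting error only). A further 18550 regions kept their endosperm peak at all 4 stages, 13715 had none at any stage, and 2791 gained it one way, which leaves 3709 in which it came and went in another order. Among regions with a peak at 1 endosperm stage, 491 had it at 2 DAP, 718 at 3 DAP, 472 at 6 DAP and 735 at 9 DAP. Among regions with a peak at 3 endosperm stages, 889 lacked it at 9 DAP, 397 at 6 DAP, 466 at 3 DAP and 1741 at 2 DAP. Loss after 3 DAP, with 270 regions, was less frequent than each other pattern of 2 endosperm stages except presence at 2 and 9 DAP, with 170.

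**Figure D1:**
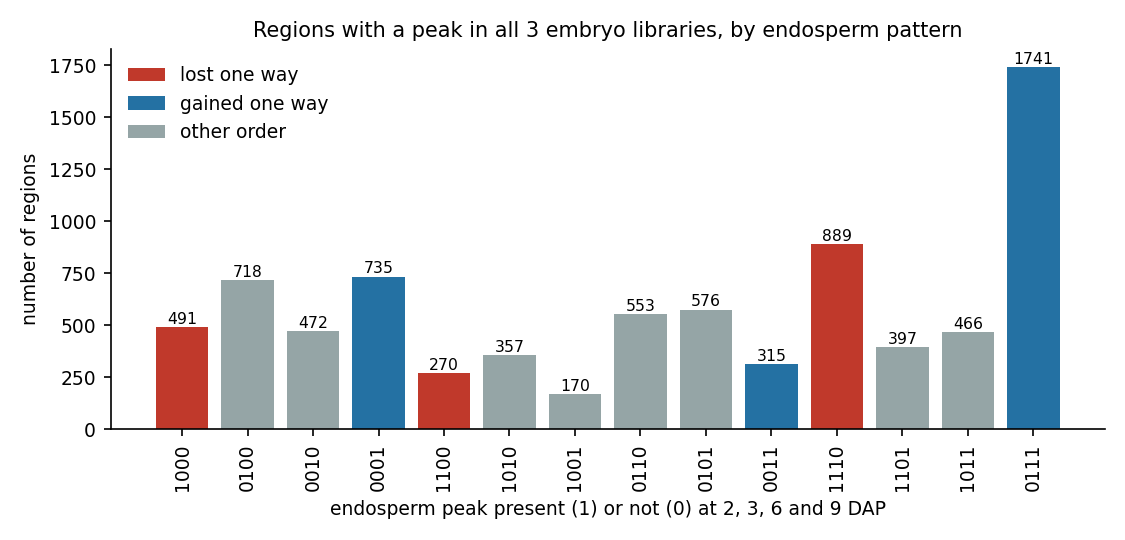
Number of constant embryo regions (y axis) for each endosperm pattern (x axis, 1 for a peak and 0 for none at 2, 3, 6 and 9 DAP), leaving out the 18550 regions kept at all stages and the 13715 with no endosperm peak. Red bars are the lost regions (491, 270 and 889), and patterns of other order are of similar height.

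Lost regions were fewer than gained regions, by a ratio of 0.591, and this balance moved with the libraries and filters used. Without the 2 DAP library the ratio of lost to gained was 1.46, and 2497 regions counted as lost. Leaving out that library also changes the rule. The 1741 regions that lacked a peak at 2 DAP alone then no longer count as gained. Without the 9 DAP endosperm library the ratio was 0.427, and the rule changes here too. The 889 regions lost after 6 DAP then no longer count as lost, and the 397 that lacked a peak at 6 DAP alone do. The 2 DAP list was the shortest, with 32986 peaks against 36132 to 36871 at the later endosperm stages. When every list was cut to the same number of top-scoring peaks, the ratio was 1.04 and the lost regions numbered 1157. The 9 DAP endosperm list had the lowest median fold enrichment, 6.02 against 6.32 to 6.66, and the lowest median score, 118 against 127 to 135, of the 7 lists. The part of these differences between lists in the losses was not tested.

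Before the loss, endosperm peaks in these regions were small, as they also were in gained regions. Levels are given as RPM, the tags in a library's peaks in a region per 1000000 filtered tags. Regions lost after 2 DAP had a median of 9.43, 9.96 and 10.1 RPM in embryo at 3, 6 and 9 DAP and 5.85 RPM in endosperm at 2 DAP, from 23 to 1118 tags with a median of 40. Regions lost after 3 DAP had 10.05, 10.1 and 10.3 RPM in embryo, and 6.00 and 5.23 RPM in endosperm at 2 and 3 DAP. Regions lost after 6 DAP had 11.2, 11.1 and 10.9 RPM in embryo, and 8.05, 7.15 and 7.26 RPM in endosperm at 2, 3 and 6 DAP. In all 3 sets the endosperm medians were below the embryo medians at each stage with a peak. Gained regions had the same order, with 9.30, 9.48 and 9.85 RPM in embryo and 7.84, 6.85 and 6.43 RPM in endosperm at 3, 6 and 9 DAP. Regions kept at every stage had the opposite order, with 13.5 to 14.3 RPM in embryo and 14.9 to 16.0 RPM in endosperm.

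Set against the embryo of the same age, the endosperm level was lower in most lost regions while the peak was still called. The median was also lower in every other pattern with a missing endosperm peak and a peak at 3 or 6 DAP. The difference was not computed at 9 DAP, so patterns with peaks at 9 DAP alone or at 2 and 9 DAP have none. At 3 DAP, 754 of the 1159 lost regions with an endosperm peak (65.1%) had fewer RPM in endosperm than in embryo, compared with 33.2% of kept regions. The median log2 difference, endosperm minus embryo, was -0.68 in regions lost after 3 DAP, -0.25 in regions lost after 6 DAP and 0.26 in kept regions. At 6 DAP it was -0.23 in regions lost after 6 DAP and 0.33 in kept regions. Other patterns with a missing endosperm peak were also below 0 where measured. Regions with an endosperm peak at 3 DAP alone had -0.60, those that lacked it at 6 DAP alone had -0.42 and those that lacked it at 2 DAP alone had -0.06, all at 3 DAP. A lower endosperm level was thus not particular to regions that went on to lose the peak. Over time, the median log2 change in endosperm from 2 to 3 DAP was -0.13 in regions lost after 3 DAP and -0.03 in regions lost after 6 DAP, against 0.13 in kept regions. From 3 to 6 DAP it was -0.01 in regions lost after 6 DAP and -0.02 in kept regions.

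**Figure D2:**
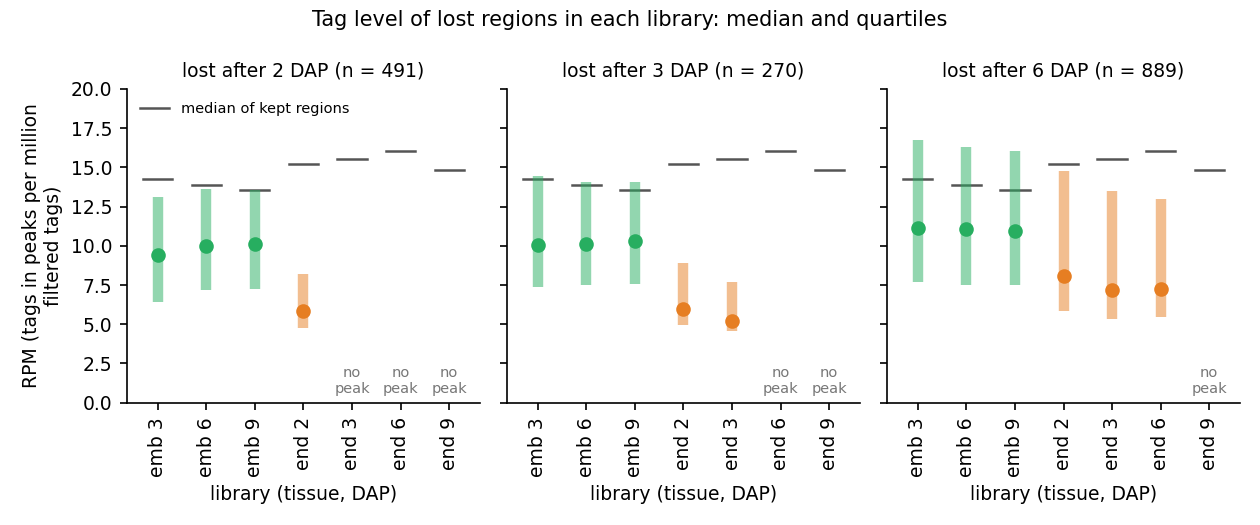
RPM (y axis) in each of the 7 libraries (x axis, emb for embryo and end for endosperm, with DAP) for regions lost after 2, 3 and 6 DAP, with dots for medians and bars for quartiles. Embryo medians stay between 9.43 and 11.2 RPM, endosperm medians between 5.23 and 8.05 RPM, and the grey lines mark the medians of kept regions, 13.5 to 16.0 RPM.

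Many of the lost peaks lay close to the limit of peak calling. In gained regions too, median endosperm scores were below those of all peaks. The authors' score, the negative base-10 logarithm of the p-value multiplied by 10, starts at 50 in their lists. The last endosperm peak had a median score of 67.7 at 2 DAP in regions lost after 2 DAP, 68.5 at 3 DAP in those lost after 3 DAP and 92.7 at 6 DAP in those lost after 6 DAP. The medians over all peaks of these 3 lists were 127, 129 and 135. Over all gained regions with a peak in the library, the median endosperm scores were 104, 84.7 and 79.4 at 3, 6 and 9 DAP. The medians over all peaks of those lists were 129, 135 and 118. Scores under 60 were found in 35.2% (interval 31.0 to 39.6), 29.6% (24.2 to 35.5) and 12.6% (10.5 to 15.0) of the last peaks of the 3 lost sets. Of all peaks in the lists of 2, 3 and 6 DAP, 10.3%, 10.2% and 9.50% scored under 60. This share was not computed for gained regions. In 201 of the 1650 regions no endosperm peak reached 60.

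Kept regions just past the threshold had medians close to those of lost regions. Among kept regions, 531 held a 9 DAP endosperm peak with a score under 60, and were thus just outside the rule. Their median was 5.49 RPM (41 tags) at 9 DAP and 8.08 RPM at 6 DAP, near the 7.26 RPM at 6 DAP of the regions lost after 6 DAP. A region without a listed peak has no tag number, and the smallest peak of the 9 DAP endosperm list held 24 tags, so the size of a loss is not known. Scores of 100 or more in every library with a peak were found in 145 lost regions (8.79%, interval 7.47 to 10.3), namely 62, 7 and 76 of the 3 sets. The same held for 8.17% (7.18 to 9.25) of gained and 52.4% of kept regions, so the lost share was close to that of gained regions. When peaks under a score of 100 were dropped from all lists, 1152 regions fitted the rule, and 242 of the 1650 overlapped one of them (14.7%).

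Within a region, endosperm and embryo peaks overlap largely by construction, since regions were merged from overlapping peaks and 1475 of the 1650 held no more than 1 peak in any library. The position of summits was not set by the rule. The summits of the strongest peaks in endosperm and in embryo at 6 DAP were a median of 63 bp apart with endosperm at 2 DAP, 39 bp at 3 DAP and 40 bp at 6 DAP. Between embryo at 3 and 6 DAP the median was 28 bp. At the strongest embryo summit of regions lost after 6 DAP, 93.7%, 94.9% and 93.6% of regions were inside an endosperm peak at 2, 3 and 6 DAP. In regions lost after 2 DAP this share was 83.1% at 2 DAP, and in kept regions it was 95.5% to 96.6% over the 4 endosperm libraries.

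Around the lost regions, the total cover by endosperm peaks at 9 DAP was at least as high as at 2 DAP, as it also was around kept regions. Single flanking peaks were not followed. The whole lists covered 46.3 Mb at 2 DAP and 49.0 Mb at 9 DAP. Within 5 kb on each side of regions lost after 6 DAP, endosperm peaks covered 12.2%, 13.0%, 12.5% and 13.0% of the bases at 2, 3, 6 and 9 DAP. Around regions lost after 2 DAP the same cover was 9.35%, 9.26%, 9.59% and 9.53%, and around those lost after 3 DAP it was 9.77%, 10.8%, 10.5% and 11.6%. From 2 to 9 DAP it went from 9.23% to 10.1% around kept regions and from 8.14% to 8.36% around those with no endosperm peak. Around regions that lacked a peak at 2 DAP alone it went from 12.7% to 12.0%. The nearest 9 DAP endosperm peak was a median of 3197, 2422 and 2617 bp away from regions lost after 2, 3 and 6 DAP. It lay within 1 kb of 19.8% (interval 16.3 to 23.6), 31.1% (25.6 to 37.0) and 21.1% (18.5 to 24.0) of them. For constant embryo regions that never had an endosperm peak these values were 3788 bp and 17.3% (16.7 to 18.0). For regions that lacked a peak at 2 DAP alone, the nearest 2 DAP endosperm peak was a median of 2575 bp away. It lay within 1 kb of 24.6% (22.6 to 26.7) of them, so such nearness was not particular to lost regions.

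**Figure D3:**
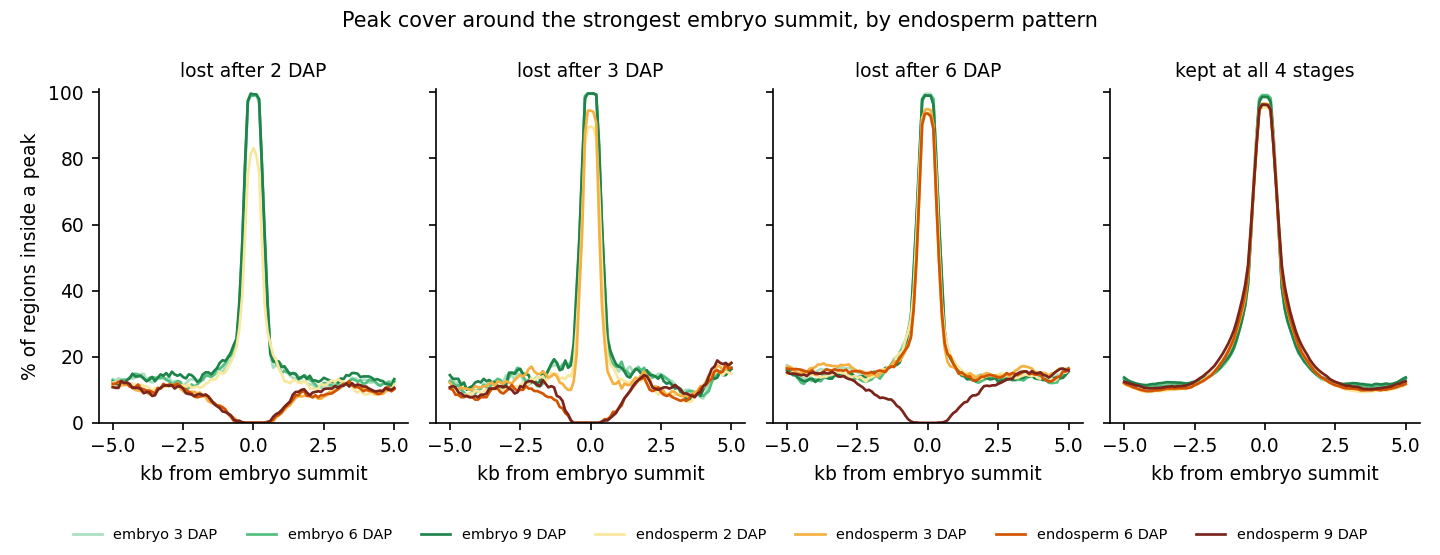
Share of regions inside a peak (y axis, percent) by distance from the strongest embryo summit (x axis, kb), for regions lost after 2, 3 and 6 DAP and for kept regions, with 1 line per library. Embryo lines reach about 99% at the summit in every panel, endosperm lines before the loss reach 83.1% to 94.9%, and after the loss they are at 0 at the summit by the rule and come near the other libraries by 5 kb away.

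In the embryo the median density of lost regions was about that of kept regions. The mean of the 3 embryo libraries, as RPM per kb of peak, had a median of 10.5 in lost regions, 10.5 in kept regions, 10.2 in regions with no endosperm peak and 9.71 in gained regions. Their median length was 1254 bp, near the 1235 bp of all constant embryo regions and the 1164 bp of gained regions. It lay between the 1783 bp of kept regions and the 850 bp of those with no endosperm peak. The median length over the 3 sets was 1181, 1156 and 1330 bp. Regions of at least 3 kb made up 7.94% of the lost regions, 5.98% of the gained regions, 17.8% of the kept regions, 0.328% of those with no endosperm peak and 9.54% of all constant embryo regions. A region is merged from the peaks of several libraries, so more libraries with a peak can by itself make it longer.

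The lost share had no steady trend with embryo score. When the constant embryo regions were ranked by their lowest embryo score and divided into 5 equal parts, the lost share was 4.44%, 4.74%, 3.699%, 3.501% and 4.03% from the weakest to the strongest. The intervals of the second (4.29 to 5.22) and the fourth (3.11 to 3.93) did not overlap. Over the same steps the kept share rose from 29.0% to 62.1%, and the share with no endosperm peak fell from 44.7% to 21.0%. The gained share fell from 9.71% to 4.96%.

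Embryo levels of lost regions changed about as much as those of all constant embryo regions. From 3 to 9 DAP the median log2 change of embryo RPM was 0.02 over the lost regions and 0.02 over all constant embryo regions. An embryo level at least 1.5-fold lower at 9 DAP was found in 102 lost regions (6.18%), where it was found in 5.78% of all constant embryo regions. A level at least 1.5-fold higher was found in 96 (5.82%), against 6.19% of all. Both shares were near those of all constant embryo regions. Over the 3 stages, the highest and lowest embryo RPM were within 1.5-fold of each other in 1304 lost regions (79.0%), and in 79.7% of all constant embryo regions.

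Within the lost regions the embryo change differed with the time of the endosperm loss. Its median was 0.09 in regions lost after 2 DAP (quartiles -0.09 and 0.30), 0.02 in those lost after 3 DAP (-0.17 and 0.20) and -0.03 in those lost after 6 DAP (-0.27 and 0.17). Regions with no endosperm peak had 0.15 and kept regions -0.09, so the 3 sets lay between these in order of the number of endosperm stages with a peak. Other patterns did not keep to this order. Among patterns of 2 stages the median ran from -0.04 (peaks at 3 and 6 DAP) to 0.13 (peaks at 2 and 9 DAP). Scaled to the kept regions, the medians of the 3 lost sets were 0.18, 0.11 and 0.06, all above 0, so the sign for regions lost after 6 DAP depends on the scaling. All constant embryo regions had 0.11 on that scale. The quartiles of the 3 sets overlapped widely, and each embryo stage is 1 library.

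**Figure D4:**
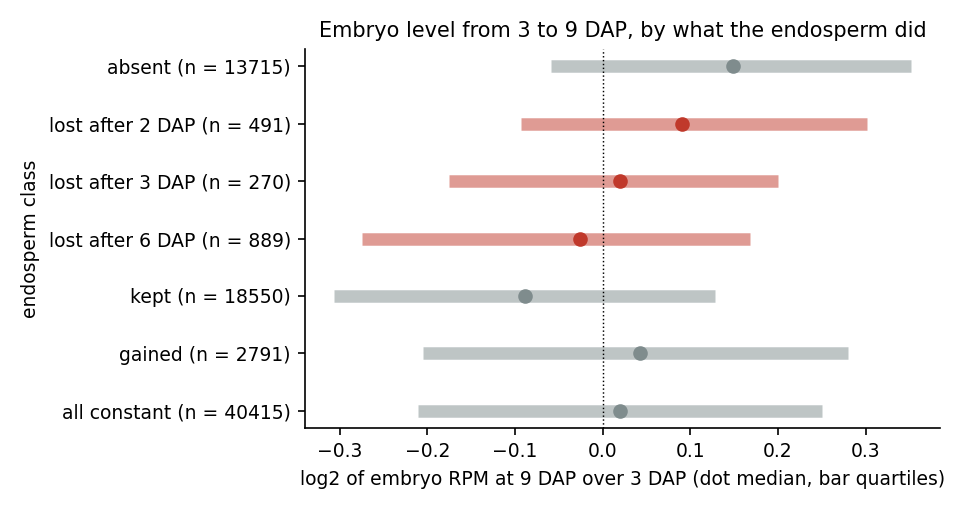
Log2 ratio of embryo RPM at 9 DAP to 3 DAP (x axis; dots are medians, bars are quartiles) for constant embryo regions by endosperm class (y axis, with the number of regions). The medians run from 0.15 with no endosperm peak through 0.09, 0.02 and -0.03 in the 3 lost sets (red) to -0.09 in kept regions.

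Lost regions were spread over all 12 chromosomes. They made up from 3.42% (interval 2.81 to 4.13) of the constant embryo regions of chromosome 7 to 4.97% (4.29 to 5.73) of those of chromosome 4, and 2 lay outside the 12 chromosomes. A complete 1 Mb bin held a median of 4 lost regions, and 7 of 367 bins held none. The fullest bin, on chromosome 3 from 20000001 to 21000000, held 12 lost regions among 122 constant embryo regions. Next came 11 of 121 on chromosome 3 from 6000001 to 7000000. A further 3 bins held 10 each, among them 10 of 88 on chromosome 4 from 5000001 to 6000000. The bins are named for these counts, so the counts are a description. The genome build of the coordinates is not given in the sources used here, so no gene or sequence was assigned to a region.

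The lost share differed little with the embryo peak cover of the surrounding bin. With the bins ranked by embryo peak cover into 5 quintiles, lost regions made up 3.82%, 3.69%, 4.28%, 4.15% and 4.34% of the constant embryo regions from the quintile with least cover to that with most, with overlapping intervals. Regions lost after 6 DAP had 1.95% (interval 1.62 to 2.33) in the first quintile and 2.62% (2.29 to 2.98) in the last. Regions lost after 2 DAP had 1.32% (1.05 to 1.63) and 1.02% (0.819 to 1.26). In both sets the intervals of the first and last quintile overlapped. For kept regions the share went from 40.9% to 55.2%. A lost region was the next region on either side of 99 lost regions (6.00%, interval 4.90 to 7.26). This share was lower for kept (4.94%, 4.63 to 5.26) and gained regions (4.48%, 3.74 to 5.31), with overlapping intervals. For regions with no endosperm peak it was 4.49% (4.15 to 4.85), without overlap with the interval of lost regions. Adjacent lost regions count each other, so the 99 are not independent and their interval is too narrow.

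The regions farthest from the calling limit were named in each set by the highest value of their lowest score over the libraries with a peak. Among regions lost after 2 DAP, the first lay on chromosome 1 from 5386709 to 5389725. Its level was 17.9, 17.3 and 18.6 RPM in embryo at 3, 6 and 9 DAP and 21.4 RPM in endosperm at 2 DAP, with scores from 325 to 517. The second, on chromosome 3 from 20360312 to 20363316, had 21.7, 18.8 and 16.7 RPM in embryo and 34.8 RPM in endosperm, with scores from 209 to 319. Its endosperm peak covered 2828 bp and its embryo peaks 1315 to 1415 bp. The third, on chromosome 3 from 6201210 to 6202669, had 9.80, 10.3 and 8.43 RPM in embryo and 15.5 RPM in endosperm. In each of these 3 regions the 2 DAP endosperm was above every embryo library, unlike in the set as a whole, and no later endosperm library had a listed peak. The choice used the score of the 2 DAP endosperm peak, so a high endosperm level follows in part from it. The first of the 3 regions held 146 tags in endosperm at 2 DAP, where the median of its set was 40.

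Among regions lost after 3 DAP, the firmest lay on chromosome 4 from 16024681 to 16027332. It had 38.2, 34.9 and 30.2 RPM in embryo at 3, 6 and 9 DAP, and 39.9 and 56.8 RPM in endosperm at 2 and 3 DAP. The next, on chromosome 2 from 26054648 to 26063299, had 20.7, 41.3 and 19.6 RPM in embryo, and 110.04 and 132 RPM in endosperm. Its endosperm scores were 116 and 125, below the medians over all peaks of those lists, 127 and 129. Its endosperm peaks covered 7279 and 7215 bp, where embryo peaks covered 1221 to 3236 bp, so the embryo and endosperm peaks were not of like size. The last, on chromosome 12 from 3731131 to 3733481, had 14.8, 14.7 and 16.4 RPM in embryo and 19.8 and 11.4 RPM in endosperm, where its scores were 220 and 107. It lay 302 bp from a region that gained its endosperm peak after 2 DAP and kept it.

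Among regions lost after 6 DAP, the firmest lay on chromosome 5 from 29442327 to 29444987. It had 35.1, 31.95 and 28.4 RPM in embryo and 37.8, 52.8 and 54.2 RPM in endosperm at 2, 3 and 6 DAP, and its last score was 444. Its endosperm level was thus highest at the last stage before the loss, with 396 tags. A region 1834 bp away lost its endosperm peak after 2 DAP. On chromosome 3 from 1275969 to 1277234, the levels were 13.3, 13.6 and 12.2 RPM in embryo and 12.6, 11.0 and 12.6 RPM in endosperm, alike in both tissues. On chromosome 1 from 17189249 to 17191323, they were 34.2, 29.4 and 28.3 RPM in embryo and 37.3, 43.8 and 43.7 RPM in endosperm. Fold enrichment over the libraries with a peak was 6.69 to 12.95 in the region on chromosome 3, against 4.58 to 5.54 in that on chromosome 5 and 4.44 to 5.40 in that on chromosome 1.

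**Figure D5:**
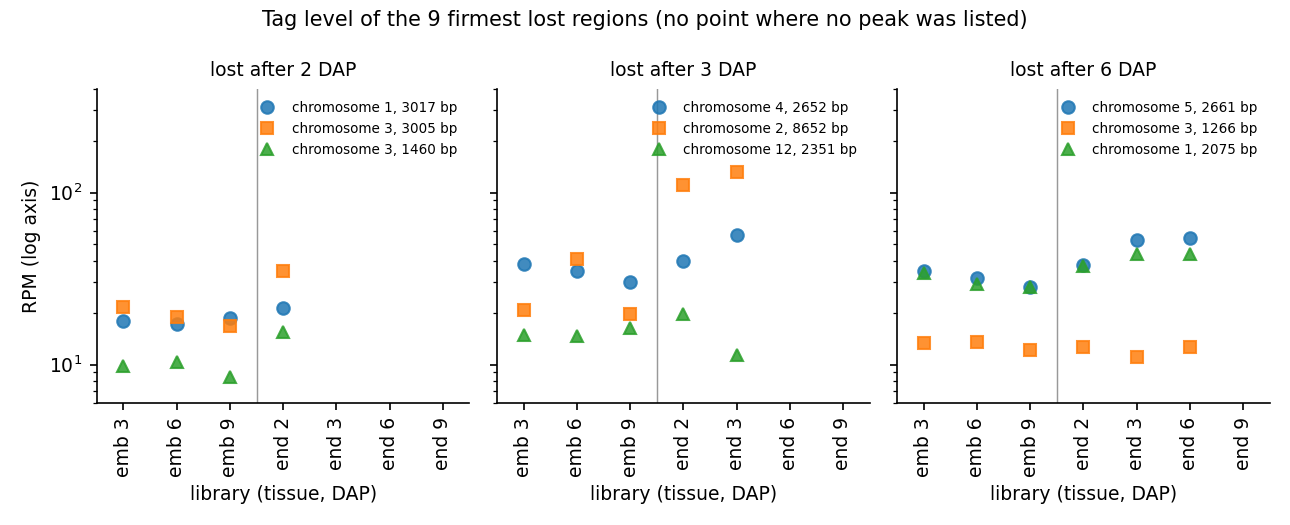
RPM (y axis, log scale) in each library (x axis) for the 9 lost regions farthest from the calling limit, 3 per panel, with no point where no peak was listed. Endosperm points before the loss lie at or above the embryo points in most of these regions, for example at 52.8 and 54.2 RPM on chromosome 5 against 28.4 to 35.1 RPM in embryo. The regions were chosen by scores that include those of the endosperm, so high endosperm levels follow in part from the choice.

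The 3 longest lost regions were all lost after 6 DAP. That on chromosome 9 from 4685304 to 4697739 (12436 bp) had 83.2, 61.7 and 102 RPM in embryo and 94.97, 168 and 96.4 RPM in endosperm at 2, 3 and 6 DAP. That on chromosome 12 from 11640403 to 11652344 (11942 bp) had 105, 26.6 and 15.1 RPM in embryo and 181, 41.5 and 55.3 RPM in endosperm. In the latter both tissues had most RPM in their first library, and in the former neither did. In both regions the highest level of each tissue was in the library whose peaks covered most. In the latter, peaks covered 8646, 2439 and 1929 bp in embryo and 11907, 2829 and 2537 bp in endosperm. That on chromosome 10 from 9318625 to 9329416 (10792 bp) had 16.5, 15.3 and 16.4 RPM in embryo and 127, 12.5 and 124 RPM in endosperm. Its endosperm peaks covered 10309, 957 and 7809 bp at 2, 3 and 6 DAP, so the endosperm level moved with the length called. Fold enrichment was low in the first of these regions, at 2.75 to 4.35, and in the second, at 3.59 to 3.96. The local background of a peak was taken over 10 kb of the same library, and its part in these losses was not tested.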

How the data were processed

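Per the file headers, the authors called peaks with MACS 1.4.2 on each library separately and without a control. Tags were 41 bp and fragments were set to 200 bp. At most 1 tag was kept at a position, the genome was taken as 360 Mb, and peaks passed a p-value of 1e-05. The background of a peak was local, over 10 kb. Bowtie2 is named in the submitters' processing notes. The sources used here do not give the genome build. Deposited tags per peak are whole-number counts, not scaled to the library. The deposited score is the negative log10 of the peak's p-value multiplied by 10, the deposited fold enrichment is the ratio to the local background, and length and summit are in bp. With no control, dense neighbourhoods raise the background and can lower scores and folds.

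From these lists, regions, RPM and cover were computed with Python 3.11.15, pandas 2.3.3 and scipy 1.17.1, and the rule was checked on simulated peak lists. No test was run, since presence chose the regions and each tissue and stage was 1 library. Intervals are exact Clopper-Pearson at 95%. PCR copies without molecular identifiers are not independent molecules. Named regions were the 3 per set with the highest lowest score, and the 3 longest overall. The members and settings were chosen with earlier results of these data known. Genes and sequences were not assigned. Alternatives were other peak filters, overlap and merging rules, scaling, ranking of bins and leaving out each library.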

Additional observations from a re-analysis of the deposited data

How the results depend on the processing

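The number of lost regions depended most on the peaks that count as present: 145 remained (62, 7 and 76 in the sets lost after 2, 3 and 6 DAP) when presence needed a score of 100 and absence an empty list, which was 0.841% of such constant embryo regions with a lost-to-gained ratio of 0.636. With peaks of score 100 or more the ratio was 0.719, the share 4.70%, and the sets lost after 2 and 3 DAP held 318 and 151 regions. Keeping peaks enriched at least 5-fold, the ratio reversed to 1.04, the share was 7.05% and the set lost after 6 DAP held 1408. With every list cut to the same number of top-scoring peaks, the ratio reversed to 1.04, the share was 4.80% and that set held 520. Requiring cover of 50% of the embryo-covered length gave 4.33%, and 1267 of the 1650 regions stayed lost. Leaving out 1 library gave 1332 (without endosperm at 9 DAP) to 2497 regions, ratios of 0.427 (without endosperm at 9 DAP) to 1.46 (without endosperm at 2 DAP) and shares of 3.29% to 6.14%. Without an endosperm library the rule itself changes, since fewer stages define a loss or a gain. The median log2 change in embryo was -0.027 at a score of 100, -0.036 at a fold of 5, 0.044 with equal numbers and 0.11 after scaling to kept regions. All constant embryo regions also had 0.11 after that scaling, and their change was not computed under the peak filters. Embryo density of lost regions was 1.03 and 1.05 times that of kept regions at a score of 100 and with equal numbers, and 0.990 and 1.01 times that of regions without an endosperm peak. The cause of these shifts was not tested. No paired test was possible because each tissue and stage was 1 library. At 3 and 6 DAP, embryo and endosperm were compared region by region as values of single libraries. Overlap with genes was not run, since the build of the files is not known.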

Other observations

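Regions lost after 6 DAP were split by their endosperm level relative to embryo, a division made after their values were seen. In 374 of the 889 the endosperm RPM at 6 DAP was at or above that of the embryo. These regions had a median length of 1653 bp and a fold enrichment of 5.23 in endosperm at 6 DAP, and endosperm peaks covered 17.5% and 17.7% of the 5 kb on each side at 6 and 9 DAP. The other 515 had a median length of 1173 bp and a fold enrichment of 6.46, with 8.94% and 9.598% of the flanks covered. At 6 DAP the former had the higher median endosperm score, 112 against 82.6, and more tags, 106 against 42. Their median embryo fold enrichment at 6 DAP was lower as well, 5.81 against 8.53. Of those placed in bins, 137 of 370 of the former (37.0%) and 89 of 501 of the latter (17.8%) lay in the peak-richest quintile. Kept regions split the same way had 10.7% and 7.64% of the flanks covered at 6 DAP and 28.6% and 20.6% in the richest quintile. The local background over 10 kb moves with such cover, and its part in the losses was not tested.

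The embryo change from 3 to 9 DAP also differed between endosperm patterns with the same number of stages. Among patterns of 3 endosperm stages, the median log2 change in embryo was -0.03 where 9 DAP was missing (889 regions) and -0.03 where 2 DAP was missing (1741), but 0.08 where 6 DAP was missing (397) and 0.06 where 3 DAP was missing (466). Among patterns of 1 stage it was 0.09 at 2 DAP, 0.04 at 3 DAP, 0.05 at 6 DAP and 0.16 at 9 DAP. These values have no replicate and are given as a description.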
